A study of Mus musculus with 29 samples.

Results

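The genes of the mitochondrial respiratory chain and ATP synthase were followed through 29 RNA-seq libraries of regenerating and intact mouse digits. They were chosen by symbol: Nduf, Uqcr, Atp5 and Cox4 to Cox8 names, Sdha to Sdhd, and the mitochondrially encoded mt-Nd, mt-Co, mt-Cytb and mt-Atp genes, without pseudogene names, with a mean of at least 5 CPM, which are counts scaled to a common library size with TMM factors. A time course of nerve-injured and sham-operated digits gave 85 such members of 24411 genes listed, all encoded in the nucleus. A set of amputated and unamputated digits gave 97 of 55487, namely 85 nuclear genes and 12 mitochondrially encoded ones. The symbols alone fitted 92 genes in the time course, of which 89 passed the filter on low counts, and 111 identifiers in the amputation set, of which 104 passed; all members are among those that passed. The nuclear lists share 82 genes. Ndufaf6, Atp5sl and Atp5s are members in the time course alone, and Ndufb4c, Ndufaf8 and Atp5mpl in the amputation set alone. Roles were given by symbol, so Atp5sl and Atp5s, listed in RefSeq as Dmac2 and Dmac2l, are counted with ATP synthase. The lowest members were Ndufaf6 at 5.51 and Atp5s at 5.63 CPM in the time course and Ndufaf5 at 5.24 CPM in the amputation set. Just below the limit were Cox4i2 at 3.92 CPM in the time course and Atp5s at 4.88, mt-Nd6 at 3.83, Ndufaf6 at 3.01 and Cox4i2 at 2.87 CPM in the amputation set.

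In the time course, mice had spared nerve injury (SNI) of the left sciatic nerve, in which the common peroneal and tibial nerves are cut, or a sham operation without transection. All of them had the third phalanx of the left hindlimb amputated 5 days later, and digits were taken 7, 14 or 21 days after amputation. SNI had 3 libraries at each day, and sham had 3 at day 7, 3 at day 14 and 2 at day 21. In the amputation set every animal had SNI, and amputated digits (3 libraries at day 7, 3 at day 14) were set against unamputated ones (3 at day 7, 3 at day 14). Unamputated samples carry a treatment label of no amputation but are also labelled as regenerates with a day after amputation, and they were grouped by treatment. The tissue was everything beyond the metacarpophalangeal joint without the nail, so a library of an amputated digit holds the regenerating tip together with the intact digit base. By their treatment label, unamputated digits hold no regenerating tip, so the compared groups also differ in tissue. The labels call the samples biological replicates, and strain, sex and age were not used here. Poly(A) RNA was sequenced, and total counts were 35654192 to 56809440 per library in the time course and 31274245 to 43315729 in the amputation set.

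The respiratory chain passes electrons from NADH and succinate to oxygen across the inner mitochondrial membrane and pumps protons, and ATP synthase uses the proton gradient to make ATP. Complex I (Nduf genes) oxidises NADH, complex II (Sdh genes) oxidises succinate, complex III (Uqcr genes and mt-Cytb) passes electrons to cytochrome c, and complex IV (Cox genes, Ndufa4 and the mt-Co genes) hands them to oxygen. Complex II is built from nuclear genes alone, while complexes I, III and IV and ATP synthase also need subunits encoded in mitochondrial DNA.

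The tissue label was checked by marker genes. Keratins of skin were abundant, and the summed markers of differentiated keratinocytes stood between 29499 and 85652 CPM in the time course and between 56625 and 95583 CPM in the amputation set. Skeletal muscle, a tissue rich in mitochondria, was nearly absent: 1 of 14 muscle markers had a mean of at least 1 CPM, and all 14 together summed to at most 11.6 CPM in the time course and 14.3 CPM in the amputation set. The muscle and testis isoforms of complex IV were likewise at trace levels. Cox7a1, the heart and muscle form of subunit 7a, averaged 0.830 CPM in the time course and 0.429 CPM in the amputation set. Cox8b, the muscle form of subunit 8, averaged 0.816 and 0.336 CPM in the same order, and Cox6a2 0.0927 and 0.0329 CPM. The widely expressed isoforms carried these subunits, with Cox8a at a mean of 200 CPM and Cox6a1 at 196 CPM in the time course. Cox6b2, the testis form of subunit 6b, averaged 1.26 CPM in the time course, against 212 CPM for Cox6b1.

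In the time course, levels per gene ran over a wide range. Per kilobase of median transcript length, Cox4i1, a regulatory subunit of complex IV, had the highest nuclear level at 666 CPM per kb. Atp5b, the catalytic beta subunit of ATP synthase, followed at 568 CPM per kb, then Ndufa4 at 532, a small subunit of complex IV once assigned to complex I. The complex II genes were close to each other, between 48.3 CPM per kb for Sdha and 74.3 for Sdhd. Complex I assembly factors, which help to build the complex and are not part of it, were lowest, between 4.70 CPM per kb for Ndufaf4 and 22.3 for Ndufaf2.

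**Figure D1:**
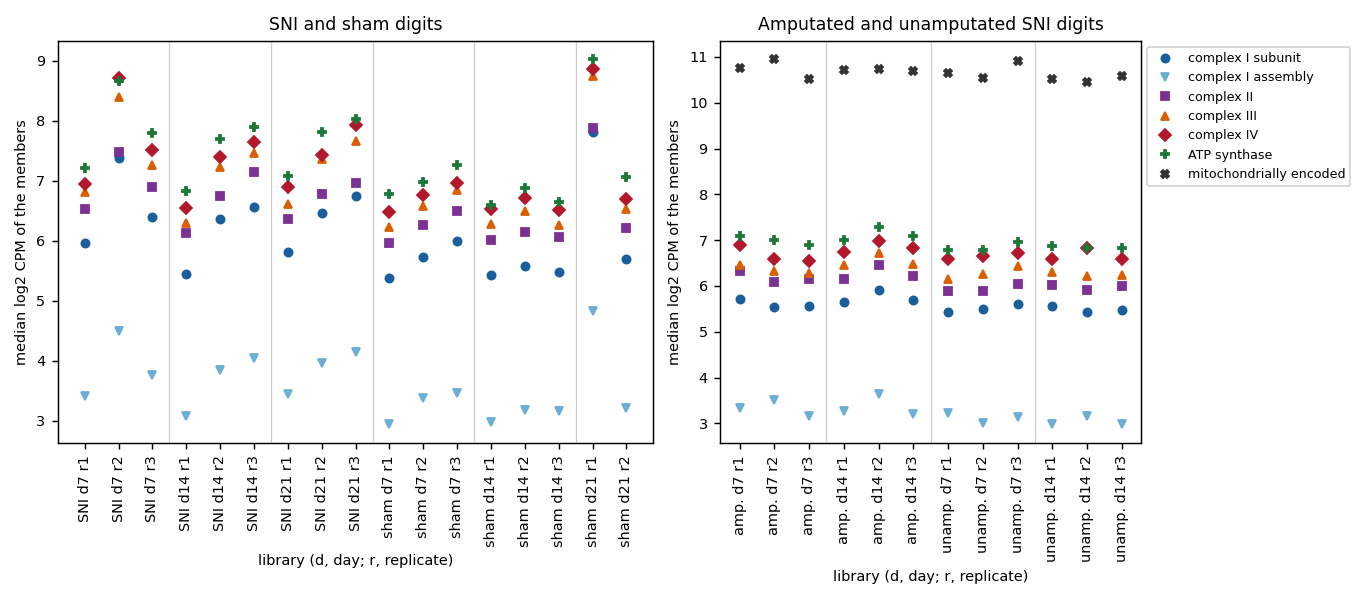
Median log2 CPM of the members of each complex (y axis) in every library (x axis), time course left and amputation set right, each symbol standing for 1 complex. In the time course all complexes move together from library to library and stand highest in sham day 21 replicate 1 and SNI day 7 replicate 2. In the amputation set all libraries lie close together. There the nuclear members as a group are highest in amputated day 14 replicate 2, and the mitochondrially encoded ones in amputated day 7 replicate 2.

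In the time course the level of the nuclear members as a group varied widely between libraries of 1 group. Their median log2 CPM was 6.35, 7.72 and 6.77 in the 3 SNI libraries at day 7, 5.99, 6.69 and 6.97 at day 14, and 6.30, 6.78 and 7.02 at day 21. In sham libraries it was 5.90, 6.22 and 6.40 at day 7, 5.90, 6.06 and 5.92 at day 14, and 8.11 and 6.14 at day 21. The highest library was sham day 21 replicate 1, which held the top value of 81 of the 85 members, and the next was SNI day 7 replicate 2. These are also the libraries with the lowest TMM factors, 0.633 and 0.761, while the others had 0.943 to 1.11. Members took 0.715% to 2.04% of a library's counts.

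Averaged over the 3 days, 84 of 85 members had a higher fitted level in SNI than in sham digits, but none passed the test. The median log2 fold change was 0.31 (range -0.032 to 0.46), against 0.013 over all 16084 genes tested. edgeR's quasi-likelihood test with Benjamini-Hochberg adjustment called 0 members (0% of all genes), 0 members had an unadjusted p under 0.05, and DESeq2 and limma voom called 0 each. The smallest p belonged to Ndufaf3, an assembly factor of complex I, with a log2 fold change of 0.41 (SE 0.23, adjusted p = 0.408). Next came Cox8a, Ndufa10, Atp5d and Ndufab1, all uncalled. The median of the members' fold changes was 0.78 without sham day 21 replicate 1, 0.079 without sham day 21 replicate 2 and 0.14 without SNI day 7 replicate 2. It was 0.82 when day 21 was left out and 0.62 without both libraries of low TMM factor, alternatives chosen after seeing the data, and again 0 members were called.

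At day 7 the SNI digits held more of nearly every nuclear member, again without a call. The median log2 fold change was 0.96, and 38 of 85 members were higher in each of 3 SNI libraries than in each of 3 sham libraries, against 13.7% of all genes, while 0 were lower without overlap, against 23.8%. By role the median was 0.98 for complex I subunits, 0.81 for their assembly factors, 0.80 for complex II, 1.05 for complex III, 1.07 for complex IV and 1.00 for ATP synthase. Sdhd, the small membrane anchor of complex II, had 71.9, 221 and 92.4 CPM in SNI digits, against 39.2, 56.2 and 65.7 CPM in sham digits. The groups did not overlap, but replicate 2 of the SNI group stood far above the other two. Its log2 fold change was 1.26 (SE 0.54, adjusted p = 0.301, uncalled).

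Cox8a, a small membrane subunit of complex IV, showed 175, 419 and 247 CPM in SNI digits, against 114, 141 and 166 CPM in sham digits. Here too the groups did not overlap and SNI replicate 2 was highest, with a log2 fold change of 0.99 (SE 0.42, adjusted p = 0.301, uncalled). Ndufa1 (1.23), Ndufa2 (1.26) and Cox6c (1.33) followed in rank, and Atp5e, the epsilon subunit of ATP synthase, had the largest log2 fold change of 1.39. Sdha, the flavoprotein that oxidises succinate, behaved otherwise: it had 133, 146 and 156 CPM in SNI digits, against 145, 145 and 140 CPM in sham digits, which overlap (0.015). Ndufs1, the large iron-sulfur subunit of complex I, had 60.6, 71.9 and 68.9 CPM in SNI digits, against 69.2, 66.1 and 69.2 CPM in sham digits (-0.023), again with overlap.

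Of the 85 members, 15 had an unadjusted p under 0.05 at day 7, a count without the share over all genes beside it. edgeR's quasi-likelihood test called 0 members (0% of all genes), and DESeq2 called 0. limma voom with sample quality weights called 78 members, all higher in SNI, in a fit that called 48.1% of all genes and 21.9% as higher, and without the weights it called 0. The weights of the SNI libraries at day 7 were 0.600, 0.171 and 4.71. Without SNI day 7 replicate 2, the median log2 fold change of the members at day 7 was 0.50. That library also held 14742 CPM of summed neutrophil markers, against 9.21 to 265 CPM in every other library of the time course, and 118 CPM of osteoblast and osteocyte markers, the lowest value. Whether these cells bear on the members' levels was not tested, and in bulk tissue fewer cells of a type and less RNA per cell cannot be told apart.

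At day 14 all 85 members had a positive log2 fold change, with a median of 0.66. Only 5 of them were higher in every SNI library than in every sham library, against 11% of all genes. Sdhd had 53.2, 82.1 and 126 CPM in SNI digits and 45.1, 47.2 and 44.6 CPM in sham digits, a log2 fold change of 0.93 (SE 0.54, adjusted p = 0.578). The groups did not overlap, but SNI replicate 1 stood close to the sham libraries. Ndufaf3, Ndufa2, Atp5l and Sdhc were the other members of smallest p, all uncalled. edgeR and DESeq2 called 0 members (0% of all genes by edgeR) and 0 had an unadjusted p under 0.05, while limma voom with quality weights called 77, all higher, in a fit that called 54.2% of all genes and 27.1% as higher, and 0 without weights.

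At day 21 the sign turned on 1 sham library. The median log2 fold change was -0.69 (all genes -0.10), and 82 of 85 members were lower in the fit. Cox7a2l, a factor that joins complexes III and IV into supercomplexes, had 180, 319 and 446 CPM in SNI digits, against 1153 and 156 CPM in sham digits. Of the sham libraries, replicate 1 lay above and replicate 2 below every SNI library. Its log2 fold change was -1.05 (SE 0.64, adjusted p = 1), and it was 1.01 without sham day 21 replicate 1.

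Across the members at day 21, the median was 0.69 without sham day 21 replicate 1 and -1.36 without sham day 21 replicate 2. 2 members were higher in every SNI than in every sham library (4.36% of all genes) and 0 were lower (3.3%). The 5 members of smallest p, all uncalled, were Ndufaf4, Ndufb6, Ndufa4, Ndufb2 and Cox7a2l. edgeR called 0 members (0% of all genes), 0 had an unadjusted p under 0.05, and DESeq2 and limma voom called 0. Sham day 21 replicate 1 also held 1917 CPM of summed erythroid markers, against 117 CPM in its partner library, 839 CPM of adipocyte markers, against 85.9 CPM, and 29499 CPM of differentiated keratinocyte markers, against 68909 CPM. Their part in the members' levels was not tested.

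Differences between days followed the same libraries. Whether the SNI effect differed between the 3 days was tested as an interaction. edgeR called 0 members (0% of all genes), with a lowest adjusted p of 0.712, and DESeq2 and limma voom called 0. An unadjusted p under 0.05 by edgeR was held by 8 members, again without the share over all genes. Ndufb6, Sdhd, Atp5e, Atp5l and Cox7b had the smallest p. Without sham day 21 replicate 2, which leaves replicate 1 as the lone sham library of that day, taken to spread as widely as the rest, 70 members and 3384 genes in all were called.

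Within sham digits, day 21 minus day 7 had a median log2 fold change of 1.32. An unadjusted p under 0.05 was held by 70 members, with the share over all genes not given. edgeR called 0 members (0% of all genes), and DESeq2 and limma voom called 0. Ndufb6, Cox7a2l, Ndufc2, Atp5e and Atp5l had the smallest p, all uncalled. Atp5e had 566 and 74.1 CPM at day 21, against 59.7, 78.1 and 100 CPM at day 7, and its later libraries lay on opposite sides of the highest earlier one. The median was -0.042 without sham day 21 replicate 1 and 2.00 without sham day 21 replicate 2, where 82 members and 8331 genes in all were called. Without overlap, 1 member was higher at day 21, Ndufaf7 (9.89% of all genes), and 2 were lower, Sdha and Ndufs1 (10.7%). From day 7 to day 14 the sham median was -0.20, with Atp5d, Ndufaf6, Cox7a2l, Cox7c and Ndufb5 of smallest p, of which Ndufaf6 and Ndufb5 were lower without overlap (9.39% of all genes). Leaving out sham day 7 replicate 1 made it -0.34, and leaving out sham day 7 replicate 3 made it -0.061. In SNI digits the median was -0.52 for day 14 minus day 7 and -0.33 for day 21 minus day 7, with Atp5d, Cox6c, Cox8a, Ndufb5 and Ndufa1, and Cox8a, Atp5d, Atp5j, Cox7b and Cox6c of smallest p. Without SNI day 7 replicate 2 these medians were -0.044 and 0.16. All members overlapped between the days in SNI digits, where 2.88% of all genes were higher without overlap at day 14 and 2.04% lower, and 2.75% higher and 2.42% lower at day 21. Of the other SNI libraries, leaving out day 14 replicate 1 gave -0.27 for day 14, and leaving out day 21 replicate 1, day 7 replicate 1 or day 21 replicate 3 gave -0.12, -0.60 and -0.58 for day 21. In these 3 comparisons edgeR, DESeq2 and limma voom called 0 members, edgeR called 0% of all genes, and 0 members had an unadjusted p under 0.05.

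**Figure D2:**
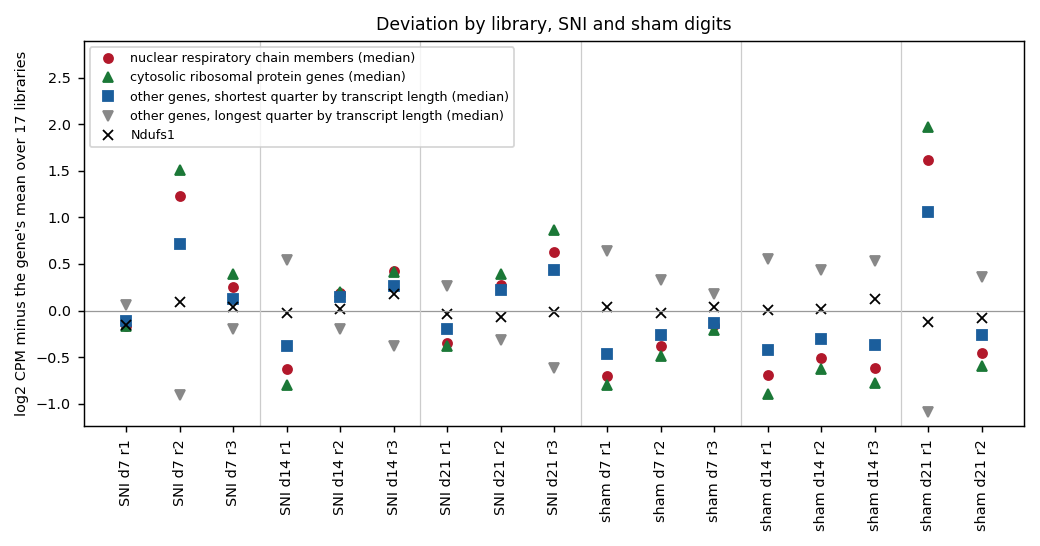
Log2 CPM minus the gene's mean over the 17 time course libraries (y axis) in each library (x axis), as the median of nuclear respiratory chain members, of cytosolic ribosomal protein genes and of other genes with short (up to 1635 bases) and long (3885 bases or more) transcripts, with Ndufs1 alone as crosses. Members move with ribosomal protein genes and short transcripts and opposite to long ones, up to 1.62 in sham day 21 replicate 1, while Ndufs1 stays near 0.

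Most of the members' variation between libraries was shared. The median SD of a nuclear member's log2 CPM over the 17 libraries was 0.689, against 0.447 over all 11278 tested genes with at least 5 CPM. After each library's median over the members was subtracted it was 0.149. In sham day 21 replicate 1 the members' median stood 1.62 above their mean over libraries, cytosolic ribosomal protein genes stood 1.97 above theirs, other genes with transcripts of up to 1635 bases 1.06 above and those with transcripts of 3885 bases or more at -1.09, that is, below. In SNI day 7 replicate 2 these values were 1.24, 1.51, 0.72 and -0.90. The 84 nuclear members with a known length have a median transcript of 810 bases, against 2588 over all genes, and 70 of them have at most 1635 bases. For those 70 the highest library exceeded the lowest by a median of 5.43-fold, and for the other 14 by 2.92-fold. Ndufs1, with a transcript of 2625 bases, varied least, between 60.6 and 76.3 CPM in all 17 libraries (1.26-fold). Ndufa10, an accessory subunit of complex I, varied 1.32-fold and Sdha 1.52-fold, while Cox7a2l varied 10.1-fold, between 115 and 1153 CPM. The part of transcript length or RNA quality in these differences was not tested.

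A group of respiratory chain genes was higher in amputated than in unamputated digits of SNI animals. Averaged over days 7 and 14, 17 of 97 members rose in amputated digits and 0 fell by edgeR's quasi-likelihood test at an adjusted p under 0.05, while over all 17475 genes 5.71% rose and 6.08% fell. Of the 97, 93 had a positive log2 fold change, with a median of 0.18, against 0.011 over all genes. The changes were small, from 0.21 to 0.45 on the log2 scale for called members. In both days, 9 members were higher in every amputated than in every unamputated library of that day (4.29% of all genes), and all 9 were called. The other 8 called members, Ndufc1, Atp5c1, Atp5j, Atp5g2, Atp5l, Ndufa2, Cox8a and Cox6c, overlapped between the groups on at least 1 day.

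Cox7a2l showed the largest rise. It had 163, 169 and 157 CPM in amputated digits at day 7 and 155, 212 and 165 CPM at day 14, against 115, 120 and 131 CPM in unamputated digits at day 7 and 127, 128 and 126 CPM at day 14. The lowest amputated library lay above the highest unamputated one. Its log2 fold change was 0.45 (SE 0.072, adjusted p = 0.00395 by edgeR, n = 6 each).

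Sdhc, a membrane subunit of complex II that anchors it and binds ubiquinone, had 99.8, 93.0 and 97.5 CPM in amputated digits at day 7 and 95.9, 117 and 102 CPM at day 14. Unamputated digits had 76.0, 75.6 and 86.6 CPM at day 7 and 81.3, 82.1 and 80.6 CPM at day 14. Here too the groups were apart on both days, with a log2 fold change of 0.33 (SE 0.059, adjusted p = 0.00711 by edgeR). The remaining complex II genes, Sdhb (0.23), Sdhd (0.19) and Sdha (0.059), were not called.

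Uqcrh, the hinge protein of complex III near cytochrome c1, had 90.9, 89.1 and 85.3 CPM in amputated digits at day 7 and 90.4, 110 and 92.0 CPM at day 14, against 68.1, 74.2 and 82.8 CPM in unamputated digits at day 7 and 79.7, 73.2 and 74.0 CPM at day 14. All amputated libraries were higher than all unamputated ones. It was the only complex III gene of 8 to pass (log2 fold change 0.30, SE 0.065, adjusted p = 0.0155 by edgeR). The core proteins Uqcrc1 (0.089) and Uqcrc2 (0.16) and the Rieske iron-sulfur protein Uqcrfs1 (0.097) were not called.

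Of the 37 complex I subunits, 5 rose, and all of them, Ndufa3, Ndufc1, Ndufa7, Ndufa13 and Ndufa2, are accessory subunits. Their log2 fold changes ran from 0.26 for Ndufa2 through 0.27 for Ndufa13 and 0.28 for Ndufa7 to 0.33 for Ndufc1. Ndufa3 had 56.3, 46.3 and 47.3 CPM in amputated digits at day 7 and 49.9, 60.6 and 54.3 CPM at day 14, against 41.9, 41.2 and 44.4 CPM in unamputated digits at day 7 and 40.1, 43.3 and 42.6 CPM at day 14. The groups did not overlap, and the log2 fold change was 0.31 (SE 0.067, adjusted p = 0.0157 by edgeR). Among the catalytic core subunits, Ndufv1 had a log2 fold change of 0.10, Ndufs1 of 0.050 and Ndufs7 of 0.016, all uncalled. Ndufb4 (0.13) and Ndufb4c (0.092) are uncertain, since all 341 windows of 50 bases of the Ndufb4c transcript also occur in Ndufb4 and reads cannot be told apart there.

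Among the 13 nuclear complex IV genes 4 rose, Cox7a2l, Cox4i1, Cox8a and Cox6c. Cox4i1, the common form of subunit 4, had 310, 265 and 261 CPM in amputated digits at day 7 and 281, 377 and 295 CPM at day 14, against 239, 245 and 260 CPM in unamputated digits at day 7 and 263, 241 and 230 CPM at day 14. The groups were apart on each day, narrowly at day 7 (log2 fold change 0.27, SE 0.078, adjusted p = 0.0408 by edgeR). Of the 9 uncalled complex IV genes, Cox7a2 (0.23, adjusted p = 0.0783), Cox6b1 (0.23, adjusted p = 0.0962) and Cox7b (0.22, adjusted p = 0.318) had log2 fold changes as large as some called members. Cox5a (0.015), Ndufa4 (0.13) and its relative Ndufa4l2 (-0.097), described as induced by hypoxia in other cells, were not called. ATP synthase had the largest share of calls, 6 of 16, with Atp5e (0.31) and Atp5h (0.23) apart on both days and Atp5g2 (0.26), Atp5j (0.24), Atp5c1 and Atp5l (0.21) overlapping on at least 1. Atp5c1, the gamma subunit that forms the central shaft, had 134, 128 and 125 CPM in amputated digits at day 7 and 133, 155 and 133 CPM at day 14, against 110, 112 and 125 CPM in unamputated digits at day 7 and 118, 114 and 114 CPM at day 14. It overlapped between the groups at day 7 and was called (0.22, SE 0.055, adjusted p = 0.0264 by edgeR). Atp5a1 and the catalytic beta subunit Atp5b both had a log2 fold change of 0.13 and were not called.

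Of the assembly factors of complex I edgeR called 0 of 7 (11.8% of all genes either way). With so few genes that count does not set them apart from all genes. An unadjusted p under 0.05 was held by 3, with the share over all genes not given, and their median log2 fold change was 0.058. Ndufaf7, an enzyme that methylates a core subunit during assembly, had 17.0, 16.8 and 15.7 CPM in amputated digits at day 7 and 14.9, 15.3 and 14.8 CPM at day 14, against 18.8, 18.8 and 17.4 CPM in unamputated digits at day 7 and 18.9, 16.1 and 19.5 CPM at day 14. It was lower in each amputated library than in each unamputated one of the same day, the only such member (3.42% of all genes), but was not called (-0.21, SE 0.069, adjusted p = 0.0623 by edgeR). Ndufaf4 (-0.23) and Ndufaf5 (-0.083) were negative and uncalled, and Ndufaf3 was positive at 0.36 (adjusted p = 0.0671).

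**Figure D3:**
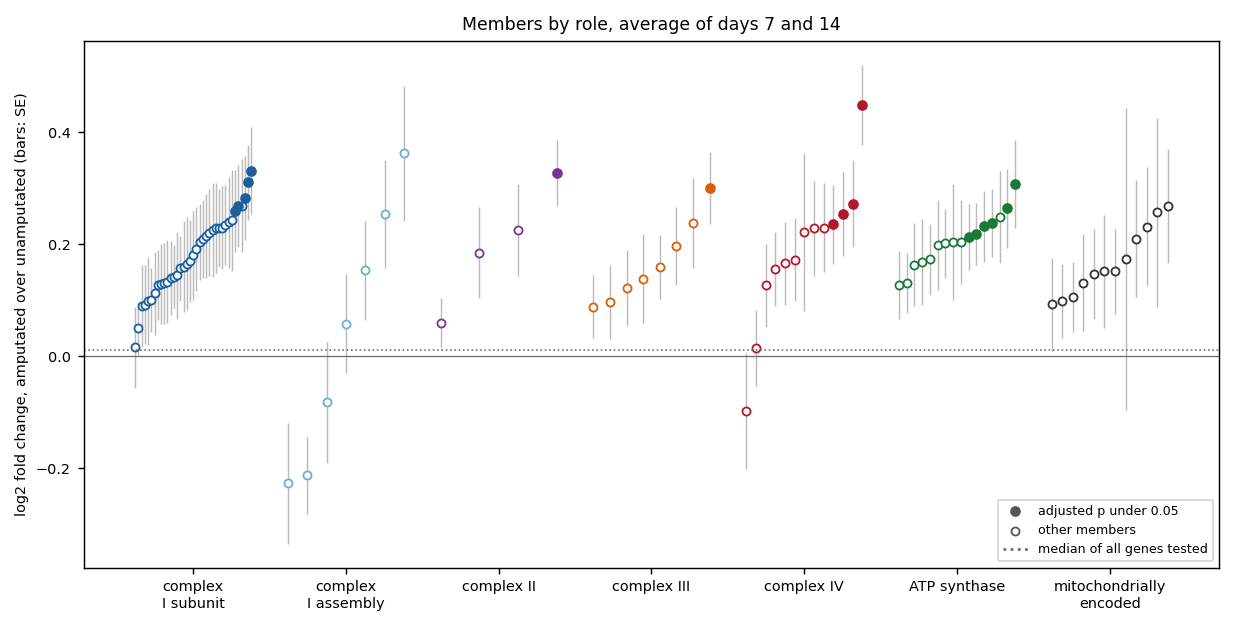
Log2 fold change of each of the 97 members, amputated over unamputated, averaged over days 7 and 14 (y axis, bars are SE), ordered within each role (x axis), with called members filled and the median of all genes dotted at 0.011. Nearly all members lie above 0, the called ones between 0.21 and 0.45, and 3 of the 4 negative members are complex I assembly factors.

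**Figure D4:**
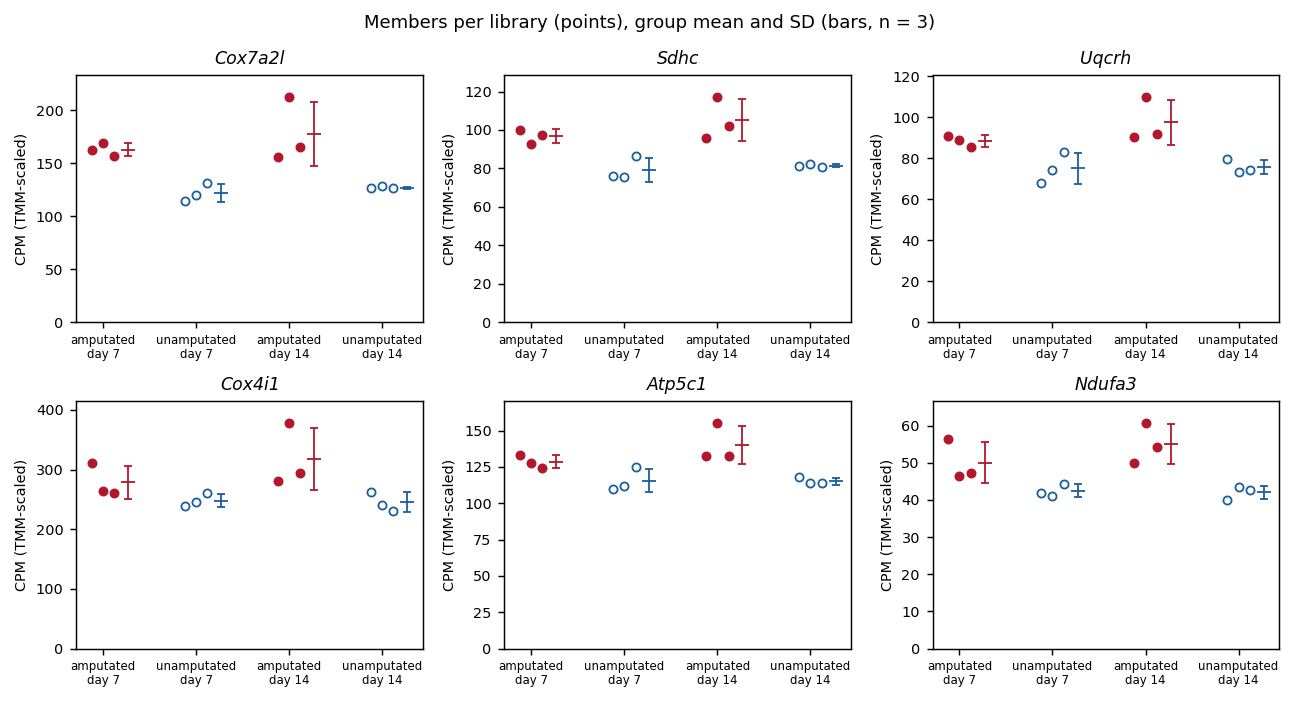
CPM (y axes start at 0) of 6 called members in each of 12 libraries, amputated filled and unamputated open, with group mean and SD (n = 3). Cox7a2l, Sdhc, Uqcrh and Ndufa3 do not overlap between amputated and unamputated digits, and day 14 replicate 2 of the amputated digits is highest in every panel.

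Each called member kept a positive fold change in all 19 other fits, and 4 of the 17, Cox7a2l, Sdhc, Uqcrh and Ndufa3, stayed called in each of them. The count of called members depended on the libraries, as did the count over all genes. Without unamputated day 7 replicate 3, 34 members were called (2428 genes in all), and without amputated day 14 replicate 2, 11 (1412). The member count was 4 without unamputated day 7 replicate 1 or 2 (736 and 972). It was 5 without amputated day 7 replicate 1 or unamputated day 14 replicate 3 (1266 and 918). Without unamputated day 14 replicate 2 it was 6, of which 5 were higher (1057 genes in all). Without unamputated day 14 replicate 1 it was 7 (1262). DESeq2 called 29 members (28 higher and 1 lower, 17.5% of all genes either way) and limma voom with quality weights 32 (31 higher and 1 lower, 18.2%), both including all 17.

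Amputated day 14 replicate 2 was the highest library for 79 of 85 nuclear members, with a median deviation of 0.36, and cytosolic ribosomal protein genes stood 0.48 above their mean there. Of those ribosomal genes 73 of 81 rose in the amputation average. Their median log2 fold change was 0.32, larger than the 0.19 of the nuclear members. Over the 12 libraries of this set the members had a median SD of log2 CPM of 0.165, against 0.171 for all genes of at least 5 CPM. In amputated day 14 replicate 2 other genes with transcripts of up to 1529 bases stood 0.22 above their mean, and those of 3787 bases or more at -0.18. Of the 85 nuclear members 69 have at most 1529 bases, and their highest library exceeded the lowest by a median of 1.48-fold, against 1.34-fold for the other 16. The part of transcript length in the amputation result was not tested.

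By day, the rise was called at day 14 only for a pair of genes, and the days were not shown to differ. At day 14, 94 of 97 members had a positive log2 fold change with a median of 0.27, and 72 were higher in every amputated than in every unamputated library (15.9% of all genes), while Ndufaf7 was lower (16.7%). Cox7a2l (0.48, adjusted p = 0.0373) and Sdhc (0.37, adjusted p = 0.0413) were called by edgeR, where 1.32% of all genes rose, and Ndufa3 (0.0501), Atp5j (0.0515) and Uqcrh (0.0522) had the next adjusted p values. DESeq2 called 28 members at day 14 (10.7% of all genes) and limma voom with quality weights 28 (12.6%). The edgeR count was 10 without amputated day 7 replicate 1 (995 genes in all) and 8 without unamputated day 7 replicate 3 (704). It was 4 without amputated day 14 replicate 1 (498) and 1 without amputated day 7 replicate 2 or 3 (266 and 388). It was 0 without amputated day 14 replicate 2 or 3 or unamputated day 7 replicate 1 or 2 (31 to 192). Leaving out any 1 of the unamputated day 14 libraries also gave 0 (33 to 70 genes in all).

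At day 7, 84 of 97 were positive with a median of 0.092, 11 were higher without overlap (10.4% of all genes) and 3 lower, Ndufaf5, Ndufaf7 and Ndufa4l2 (8.86%). edgeR called 0 members at day 7 (1.35% of all genes, 0.601% as higher), 5 had an unadjusted p under 0.05, and DESeq2 and limma voom with quality weights called 2 each (4.16% and 2.16% of all genes). Cox7a2l (0.41, adjusted p = 0.0726), Sdhc, Uqcrh, Ndufa3 and Ndufc1 had the smallest p. Without amputated day 7 replicate 1 the median over nuclear members was 0.032, against 0.097 with it, and without unamputated day 7 replicate 3 it was 0.16. Leaving out amputated day 14 replicate 2 gave 1 called member at day 7, where 315 genes in all were called.

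The interaction of amputation with day had 0 calls by edgeR (0% of all genes), DESeq2 and limma voom, and 2 members had an unadjusted p under 0.05 (lowest adjusted p = 0.784, with Ndufb5, Ndufs5, Uqcr11, mt-Co3 and Uqcrq first). Its median over nuclear members was 0.17, 0.081 without amputated day 14 replicate 2 and 0.11 without unamputated day 7 replicate 3. From day 7 to day 14 in amputated digits 0 members were called by edgeR (0.607% of all genes), DESeq2 or limma voom. An unadjusted p under 0.05 was held by 12 members, with the share over all genes not given. Ndufa4 (0.30), mt-Co3 (0.41), Ndufaf8, Ndufs6 and Ndufv3 came first. In unamputated digits 0 members were called by any of these tools (0.303% of all genes by edgeR) and 0 had an unadjusted p under 0.05. There the smallest p belonged to mt-Nd5, Ndufaf5, Ndufab1, mt-Nd1 and Ndufa4l2. The nuclear median was 0.15 in amputated digits, or 0.050 without amputated day 14 replicate 2. In unamputated digits it was -0.027, between -0.056 without day 7 replicate 1 and 0.033 without day 7 replicate 3. Without overlap, 12 members were higher at day 14 in amputated digits (8.78% of all genes) and 1 lower (7.75%), and in unamputated digits 0 were higher (5.59%) and 4 lower (5.3%).

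The 12 mitochondrially encoded members were measured in the amputation set alone. They took 1.99% to 2.55% of a library's counts, 2.63 to 3.39 times the counts of the 85 nuclear members together. Per kilobase, mt-Atp6, the proton channel subunit of ATP synthase, was highest at 4600.4 CPM per kb, followed by mt-Co1, the catalytic subunit of complex IV, at 4233 CPM per kb. mt-Nd3 and mt-Nd4l, small membrane subunits of complex I, were lowest at 199 and 282 CPM per kb.

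All 12 had a positive log2 fold change in amputated digits, from 0.093 for mt-Nd5 to 0.27 for mt-Co3, with a median of 0.15. edgeR called 0 of them (11.8% of all genes either way), which with so few genes does not set them apart. An unadjusted p under 0.05 was held by 2, mt-Co3 and mt-Co2, with the share over all genes not given. mt-Co3, a core subunit of complex IV, had 838, 1019.9 and 827 CPM in amputated digits at day 7 and 1187, 1119 and 1271 CPM at day 14, against 793, 703 and 1101 CPM in unamputated digits at day 7 and 776, 910 and 863 CPM at day 14. The groups overlapped at day 7 and were apart at day 14 (average 0.27, SE 0.10, adjusted p = 0.102 by edgeR). mt-Nd3 was the least steady, with 70.5, 82.3 and 28.3 CPM in amputated digits at day 7 and 83.9, 113 and 64.7 CPM at day 14, against 49.4, 71.7 and 95.4 CPM in unamputated digits at day 7 and 54.6, 49.6 and 67.8 CPM at day 14. Its groups overlapped on both days (0.17, SE 0.27, adjusted p = 0.710).

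**Figure D5:**
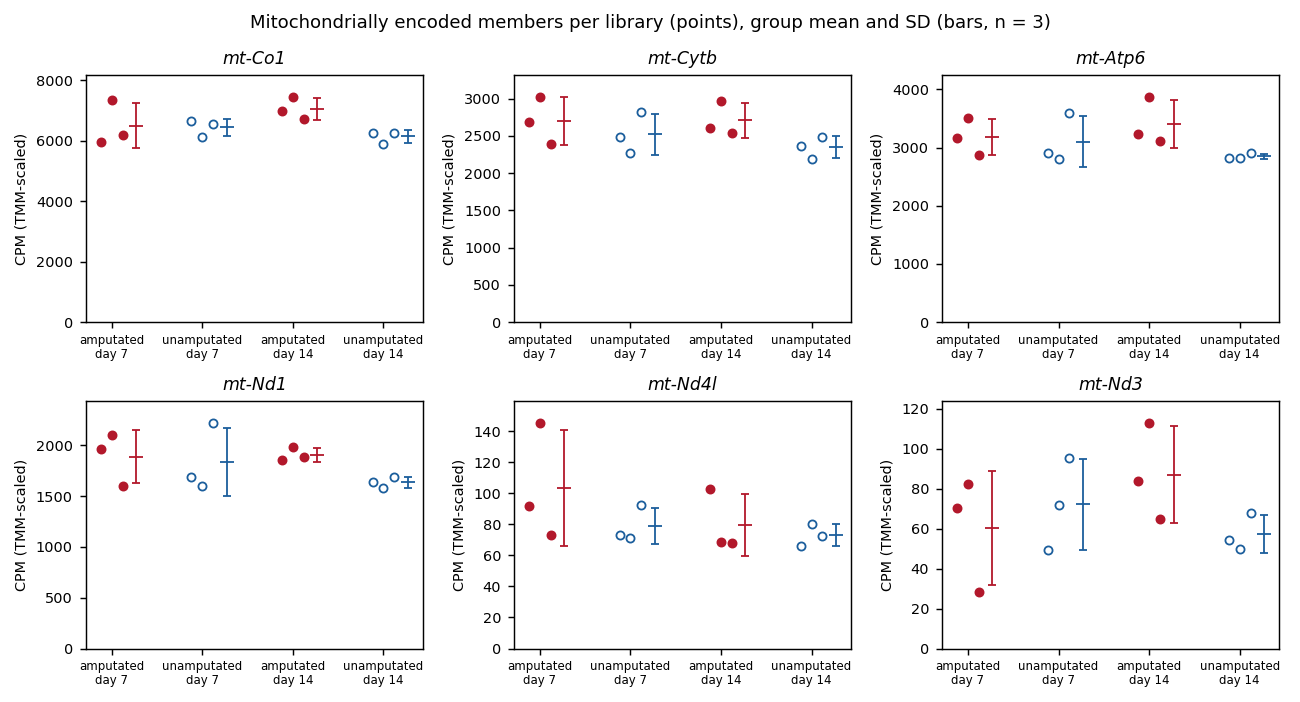
CPM (y axes start at 0) of 6 mitochondrially encoded members in each of 12 libraries, amputated filled and unamputated open, with group mean and SD (n = 3). At day 7 the groups overlap in all panels and amputated replicate 3 is the lowest for mt-Nd3 at 28.3 CPM.

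Some mitochondrial genes share bases on the same strand, so a read there cannot be given to 1 gene. mt-Atp8 (GRCm38 chrM:7766-7969, + strand) and mt-Atp6 (chrM:7927-8607, + strand) share 43 bases, 21.1% of mt-Atp8 and 6.31% of mt-Atp6, and mt-Nd4l shares 7 bases with mt-Nd4. The junction is shown from the reference genome with GENCODE M21 gene ends to mark the ambiguous stretch, with the shared bases in capitals: the end of mt-Atp8 with 30 bases before them, and the start of mt-Atp6 with 30 bases after them.
mt-Atp8: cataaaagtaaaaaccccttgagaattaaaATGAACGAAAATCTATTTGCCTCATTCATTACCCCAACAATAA
mt-Atp6: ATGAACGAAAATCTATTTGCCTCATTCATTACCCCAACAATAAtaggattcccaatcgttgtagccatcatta

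The promoters of nuclear members were read for 4 motifs. A window of 300 bases (250 before to 50 after the gene start) from RefSeq, build GRCm38.p6, was found for 73 of the 88 nuclear members of either set, 79 windows in all, and compared with 32851 windows of the whole table, both strands. The core of the NRF1 site, GCGCATG, was in 19.0% of member windows, against 3.91% of all windows. The ETS core CCGGAAG, which GABP binds, was in 22.8%, against 8.86%, and the YY1 core AAGATGG in 17.7%, against 6.34%. The E-box CAGCTG was in 6.33%, against 16.3%. Windows of cytosolic ribosomal protein genes held these motifs in 10.3% (NRF1), 32.1% (ETS), 15.4% (YY1) and 5.13% (E-box). Of the 17 members called after amputation 13 had a window, 16 windows in all, of which 2 held the NRF1 core, 6 the ETS core, 3 the YY1 core and 0 the E-box. A match describes the letters of a window and no binding was measured. The windows of the whole table were not matched to the members for base content or expression. The part of the motifs in the members' levels was not tested. A called member for each of the 3 motifs is shown 5′ to 3′ on the gene's strand, with the motif in capitals. Atp5g2, a membrane ring subunit of ATP synthase, lies at chr15:102670998-102671297 (- strand) and holds GCGCATG 42 bases before its start, overlapped by its reverse complement. Uqcrh lies at chr4:116075021-116075320 (- strand) and holds the reverse complement of the ETS core 10 bases before its start. Ndufa3 lies at chr7:3617123-3617422 (+ strand) and holds the YY1 core 22 bases after its start.
Atp5g2: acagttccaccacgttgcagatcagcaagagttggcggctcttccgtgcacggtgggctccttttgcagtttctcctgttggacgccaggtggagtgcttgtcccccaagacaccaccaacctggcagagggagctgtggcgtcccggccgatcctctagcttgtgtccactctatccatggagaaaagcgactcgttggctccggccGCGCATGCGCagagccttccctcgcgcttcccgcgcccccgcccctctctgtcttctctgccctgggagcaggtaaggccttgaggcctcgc
Uqcrh: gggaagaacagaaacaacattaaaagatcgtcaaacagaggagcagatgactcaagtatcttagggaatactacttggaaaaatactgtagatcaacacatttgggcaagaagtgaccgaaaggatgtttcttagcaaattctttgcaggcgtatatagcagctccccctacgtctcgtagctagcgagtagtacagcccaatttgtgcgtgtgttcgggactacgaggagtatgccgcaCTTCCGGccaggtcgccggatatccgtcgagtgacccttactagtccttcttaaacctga
Ndufa3: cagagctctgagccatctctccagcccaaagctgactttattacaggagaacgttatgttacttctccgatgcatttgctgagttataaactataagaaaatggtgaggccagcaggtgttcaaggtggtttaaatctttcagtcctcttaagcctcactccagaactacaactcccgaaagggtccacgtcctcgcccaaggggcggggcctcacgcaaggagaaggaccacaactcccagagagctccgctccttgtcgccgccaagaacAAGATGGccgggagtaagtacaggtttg

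Other genes of mitochondrial metabolism are set beside the 5.71% of all genes that rose and the 6.08% that fell after amputation. Of 31 assembly factors of complexes II to V 2 rose, a count near the share over all genes. They were Cox14 (log2 fold change 0.39, adjusted p = 0.00721 by edgeR), which acts in complex IV assembly, and Uqcc3 (0.28), a complex III factor. Of 6 electron carrier genes Etfa rose (0.19), which passes electrons from fatty acid oxidation. Of 12 genes of the TCA cycle 2 rose, Suclg2 (0.22) and Idh3g (0.19), and of 6 carriers and pores Slc25a4 (0.25), the ADP/ATP carrier of heart and muscle, rose. Mitochondrial ribosomal protein genes had 8 of 78 higher with a median of 0.11.

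Among regulators of mitochondrial biogenesis 4 of 19 fell and 0 rose, with a median of -0.066, where 6.08% of all genes fell and the median of all genes was 0.011. These were Ppargc1a (-1.11, SE 0.30, adjusted p = 0.0353), the coactivator known for driving mitochondrial biogenesis, Polrmt (-0.48, adjusted p = 0.0134), the mitochondrial RNA polymerase, Polg (-0.24), the mitochondrial DNA polymerase, and Nrf1 (-0.21), a transcription factor of respiratory genes. Of 15 glycolysis genes 1 fell, Pfkp (-0.27), and 0 rose, a count near the share over all genes, with a median of -0.034. In the time course at day 7 none of these lists had a call, and their median log2 fold changes in SNI over sham digits were 0.75 for mitochondrial ribosomal proteins, 0.71 for electron carriers, 0.35 for the TCA cycle, 0.27 for biogenesis regulators and 0.27 for glycolysis.

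Markers of other cells also differed between amputated and unamputated digits. Summed myelin markers of Schwann cells were 116 to 236 CPM in amputated digits, against 340 to 435 CPM in unamputated ones. Osteoclast markers, of bone-resorbing cells rich in mitochondria, were 339 to 1739 CPM in amputated digits at day 7 and 267 to 413 CPM at day 14, against 103 to 295 CPM in unamputated digits at day 7 and 114 to 139 CPM at day 14. Differentiated keratinocyte markers were 56625 to 70214 CPM in amputated digits, against 75808.5 to 95583 CPM in unamputated digits, and sweat gland markers 254 to 340 CPM, against 346 to 373 CPM. Muscle markers summed to 3.91 to 14.3 CPM in amputated digits and 4.15 to 6.68 CPM in unamputated digits. The part of these cells in the members' differences was not tested.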

How the data were processed

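Poly(A) RNA of mouse digits was sequenced with a strand-specific kit. The authors deposited 2 tables of raw counts per gene, 1 with gene symbols and 1 with Ensembl identifiers; the submitters' processing notes name GRCm39 as the build, and how reads were aligned and counted is not given in the sources used here. GENCODE M21 (GRCm38) gave symbols for 55141 identifiers (99.4%) and median transcript lengths, and promoter windows came from RefSeq (GRCm38.p6). The time course table lists no mitochondrially encoded gene.

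The tables were fitted apart, with a mean per group and no block. Genes were filtered with filterByExpr (minimum count 10, minimum total 15), which left 16084 and 17475. Counts were TMM-normalized and fitted with the robust quasi-likelihood model of edgeR (common biological coefficient of variation 0.393 and 0.17), with Benjamini-Hochberg adjustment over all genes and calls at an adjusted p under 0.05. Levels in log2 CPM use a prior count of 2. Members are every symbol of the rule with a mean of at least 5 CPM; named in each comparison were the called members without overlap of libraries, or the 5 of smallest p, next to tissue isoforms, core subunits and mitochondrially encoded genes. The members and lists were chosen with earlier results of these data known.

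Alternatives were RLE size factors, no filter, DESeq2, limma voom, library sizes without mitochondrially encoded genes, replicate number as a block, the compared groups alone, membership at 1 or 20 CPM and leaving out every library once. A group then left with 1 library is taken to spread as widely as the others. Added after seeing the data were voom without quality weights, the time course without both libraries of low TMM factor and the average of days 7 and 14. P-values set differences between groups against the spread between these libraries. Counts of members with an unadjusted p under 0.05 lack the share over all genes, so they do not set members apart from other genes. No pair of replicates agreed within sampling noise (chi-square per degree of freedom at least 12.4). The fit was also run on simulated counts with planted changes larger than those of the called members. These counts had no shift shared by genes within a library, so the run does not bear on changes of the members' size. Versions were DESeq2 1.42.0, limma 3.58.1, edgeR 4.0.16 and R 4.3.3.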

Additional observations from a re-analysis of the deposited data

How the results depend on the processing

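In the amputation average all 17 calls kept their direction under every alternative. The count of called members ranged from 4 (736 and 972 genes in all) to 34 (2428) with 1 library left out. It was 29 with DESeq2, 32 with quality-weighted voom and 5 with replicate number as a block. At day 14 it was 0 (31 to 192 genes in all) to 10 (995) with 1 library left out. It was 28 there with DESeq2, 28 with quality-weighted voom, 1 without the weights, 1 with the compared groups alone and 0 with the block. At day 7 it was 0 to 1 with 1 library left out, 2 with DESeq2, 2 with quality-weighted voom and 1 without a filter. The counts with the block, without the weights, with the compared groups alone and without a filter lack the count over all genes. They do not show whether members lost calls more than other genes did. Whether the replicate numbers pair the samples could not be decided from so few libraries per group. In the amputation set same-numbered libraries correlated between -0.20 and 0.14 (1 of 18 pairs over 0.1), and different-numbered ones between -0.13 and 0.18 (4 of 36). In the time course the values were -0.79 to 0.77 (18 of 40) and -0.75 to 0.79 (30 of 80). The lower counts with the block thus stand as a limit on the calls, and the block moved no other count.

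In the time course, quality-weighted voom called 78 members at day 7 and 77 at day 14. Without both libraries of low TMM factor the members' median was 0.69 for SNI over sham at day 21 and -0.042 for sham day 21 over day 7. With 1 library left out these medians ran from -1.36 to 0.69 and from -0.042 to 2.00, and calls from 0 to 70 for the interaction and from 0 to 82 for sham day 21 over day 7. The range of library medians in the amputation set was 0.26 to 0.49. At day 21, SNI over sham ran with 1 library left out from -0.967 to 0.026 for Ndufaf4, from -1.89 to 0.75 for Ndufb6, from -1.89 to 0.82 for Ndufa4, from -1.93 to 0.83 for Ndufb2 and from -1.87 to 1.01 for Cox7a2l, the ends being without sham day 21 replicate 2 and replicate 1, and was 0.027, 0.76, 0.82, 0.83 and 1.01 without both libraries of low TMM factor. Sham day 21 over day 7 likewise ran from -0.16 to 2.71 for Cox7a2l and from -0.092 to 2.83 for Atp5e, the lower values also without both. Day 21 over day 7 in SNI ran from -0.799 to 0.043 for Atp5j, from -0.872 to 0.17 for Cox7b and from -0.866 to 0.17 for Cox6c, the ends being without SNI day 7 replicate 1 and replicate 2, and was 0.042, 0.16 and 0.17 without both libraries and 0.058 for Cox7b with weighted voom. Day 14 over day 7 in unamputated digits ran from -0.042 to 0.349 for Ndufa4l2, without day 14 replicate 2 and replicate 3. The causes were not tested. The time course table lists no mitochondrially encoded genes, so library sizes without them could not be run there.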
